A study of Mus musculus with 21 samples.

Results

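Interferon-stimulated genes are the genes that a cell switches on when it senses interferon. They were examined here as a set of 37 listed mouse genes, of which 36 had at least 1 named probe on the array and 1, Ifi44, was not analysed here. The 36 genes were read by 56 probes, averaged per gene, among 19087 genes in all. The set was taken from known biology of the interferon response, and the measured values of these tumours were not part of the rule, although earlier results of the same data were known when it was drawn up.

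The tumours were mammary tumours of mice carrying 1 of 4 transgenes. MMTV-ATX mice express autotaxin, an enzyme released from cells that produces the lipid lysophosphatidic acid (LPA), and MMTV-LPA1, MMTV-LPA2 and MMTV-LPA3 mice each express 1 of the receptors of that lipid. All 4 transgenes use the MMTV promoter, which drives expression in the mammary epithelium, and no tumour-free or non-transgenic tissue was analysed here. Each group held 5 tumours from 5 mice, 20 tumours in all, and they are called ATX, LPA1, LPA2 and LPA3 with the mouse number of the labels. Strain, age and parity are not given in the sources used here. Tumour RNA, labelled with Cy5, was hybridised on 2-colour Agilent arrays against total RNA of whole mice, labelled with Cy3, so every value is a log2 ratio of tumour over that reference, and 0 means a level equal to it. Base 2 was assumed for these logarithms, since no label states it, and under it a value of 1 is a 2-fold higher level. The dyes were not swapped, and any dye bias a probe has is part of its value. The p-values set differences between groups against 1 estimate of the spread between tumours, which the 4 groups of 5 mice share.

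The arrays fell into 2 sets that bear on every comparison. Array titles carry a number, taken here as the slide, and slides were numbered 1 to 7. The 7 arrays of slides 5 and 6 had narrower ratios (SD of all features 0.825 to 0.903) than the other 14 arrays (1.20 to 1.43). They held LPA1 mice 1, 2 and 5, LPA2 mice 1, 2 and 5 and LPA3 mouse 4, and no ATX tumour. The other 13 tumours are called those of slides 1 to 4. LPA1 mouse 4 was measured on slide 7 and again on slide 4, and its arrays correlated at 0.912 over the members. They were averaged, except in the fits within slides 1 to 4 or with slide as a block, which used the slide 4 array alone. Because ATX and the receptors were not spread evenly, each comparison is given with and without the slide set in the model.

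The keratins Krt8 and Krt18 and the milk protein genes Csn2 and Csn3 were above the reference in 20 of 20 tumours, and the epithelial marker Epcam in 18. Lpar1 averaged −0.58 ± 1.31 (SD, n = 5) in LPA1 tumours, above the other group means of −1.73 to −0.845. Lpar2 averaged 0.58 ± 0.48 in LPA2 tumours, below the other group means of 0.64 to 1.25. Lpar3 averaged 0.08 ± 1.66 in LPA3 tumours, above the other group means of −0.755 to −0.62. The labels do not say whether these probes read the transgenes' RNA, so these values check no label.

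Interferons are secreted proteins that warn neighbouring cells of infection or damage. Type I interferons act through a receptor whose kinases switch on a complex that includes Stat2 and Irf9 and binds the interferon-stimulated response element (ISRE) in promoters. Interferon gamma, made by T and NK cells, acts through the gamma-activated site (GAS) in promoters, and through Irf1. In tumours these programmes are known from dying or genome-damaged tumour cells, from infiltrating lymphocytes and from the antigen presentation that lets T cells see the tumour.

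Promoter sequence was at hand for 27 of the 36 members, as 31 windows of 300 bases (250 before to 50 after the start) from RefSeq, build GRCm38.p6. Both strands were searched for an ISRE core, which is GAAA, any 2 bases and GAAA (TTTC, any 2 bases and TTTC on the other strand), and for a GAS core, TTCNNNGAA, which reads the same on both. The ISRE core was in 13 of the 31 windows (41.9%), against 3.44% of all 32851 promoter windows. The GAS core was in 8 of 31 (25.8%), against 8.30% of all windows. By role the ISRE core lay in 4 of 5 windows of the interferon-induced GTPases, 4 of 8 of the antiviral effectors and 2 of 2 of the nucleic acid sensors. It lay in 1 of 6 of the transcription factors, 1 of 4 of the ISG15 system and other induced proteins and 1 of 3 of the oligoadenylate synthetase family. Of the antigen processing genes 0 of 3 windows held it. A match describes letters only, and its absence says nothing about a factor. The windows of 6 members whose levels are described below are printed because they show these layouts, with the matched letters in capitals. Ifit1 (chr19:34640639-34640938, plus strand) holds 2 ISRE cores and Isg15 (chr4:156200769-156201068, minus strand) a run of 3 that overlap. Irgm1 (chr11:48871371-48871670, minus strand) holds 2 that overlap, and Igtp (chr11:58199306-58199605, plus strand) has an ISRE core and a GAS core side by side. Irf1 (chr11:53769764-53770063, plus strand) and Psmb8 (chr17:34197945-34198244, plus strand) have a GAS core and no ISRE core.
Ifit1: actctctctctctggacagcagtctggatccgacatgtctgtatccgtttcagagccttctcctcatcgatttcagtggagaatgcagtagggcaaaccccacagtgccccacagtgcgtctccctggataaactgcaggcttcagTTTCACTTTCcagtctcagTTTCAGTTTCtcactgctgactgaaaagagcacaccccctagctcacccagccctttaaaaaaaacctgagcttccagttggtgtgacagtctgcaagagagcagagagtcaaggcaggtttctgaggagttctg
Isg15: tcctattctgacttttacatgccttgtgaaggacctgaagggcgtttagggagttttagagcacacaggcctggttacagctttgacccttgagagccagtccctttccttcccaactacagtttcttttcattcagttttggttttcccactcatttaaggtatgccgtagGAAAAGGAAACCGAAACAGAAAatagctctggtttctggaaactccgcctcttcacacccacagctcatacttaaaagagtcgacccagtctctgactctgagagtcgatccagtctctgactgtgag
Irgm1: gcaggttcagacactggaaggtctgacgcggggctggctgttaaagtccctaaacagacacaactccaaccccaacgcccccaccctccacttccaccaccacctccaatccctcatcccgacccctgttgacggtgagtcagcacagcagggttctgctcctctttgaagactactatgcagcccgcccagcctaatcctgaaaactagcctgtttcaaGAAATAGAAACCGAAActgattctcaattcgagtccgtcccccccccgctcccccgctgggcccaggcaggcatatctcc
Igtp: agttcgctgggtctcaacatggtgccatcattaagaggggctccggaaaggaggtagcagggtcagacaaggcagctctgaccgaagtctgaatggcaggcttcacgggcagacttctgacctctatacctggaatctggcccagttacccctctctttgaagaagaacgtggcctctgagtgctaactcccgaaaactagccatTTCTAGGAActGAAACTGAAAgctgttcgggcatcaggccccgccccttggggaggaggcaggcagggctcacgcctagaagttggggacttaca
Irf1: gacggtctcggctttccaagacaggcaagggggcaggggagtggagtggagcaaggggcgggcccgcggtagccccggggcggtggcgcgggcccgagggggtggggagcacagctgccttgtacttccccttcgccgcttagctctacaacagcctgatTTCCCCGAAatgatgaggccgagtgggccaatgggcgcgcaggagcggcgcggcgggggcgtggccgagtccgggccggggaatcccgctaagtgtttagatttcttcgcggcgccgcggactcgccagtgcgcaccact
Psmb8: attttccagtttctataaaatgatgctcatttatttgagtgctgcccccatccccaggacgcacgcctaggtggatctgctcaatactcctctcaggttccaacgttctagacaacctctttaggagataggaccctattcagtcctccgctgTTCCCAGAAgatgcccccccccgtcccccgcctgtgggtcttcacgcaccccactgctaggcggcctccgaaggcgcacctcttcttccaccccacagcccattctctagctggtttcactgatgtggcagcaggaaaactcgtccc

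Most interferon-stimulated genes were above the whole-mouse reference in these tumours. The mean over 20 tumours lay above 0 for 33 of 36 members (91.7%), against 50.9% of the 18932 genes measured in every tumour. In 13 of 36 (36.1%) the ratio was above 0 in all 20 tumours, against 3.99% of all genes. The median of the members' means was 0.75 on the log2 scale, against 0.01 over all genes. In bulk tumours, fewer cells of a type and less RNA per cell cannot be told apart, and the reference mixes all tissues of a mouse. Members also varied more than most genes, with a median SD over tumours of 0.77 against 0.59 over all genes.

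**Figure D1:**
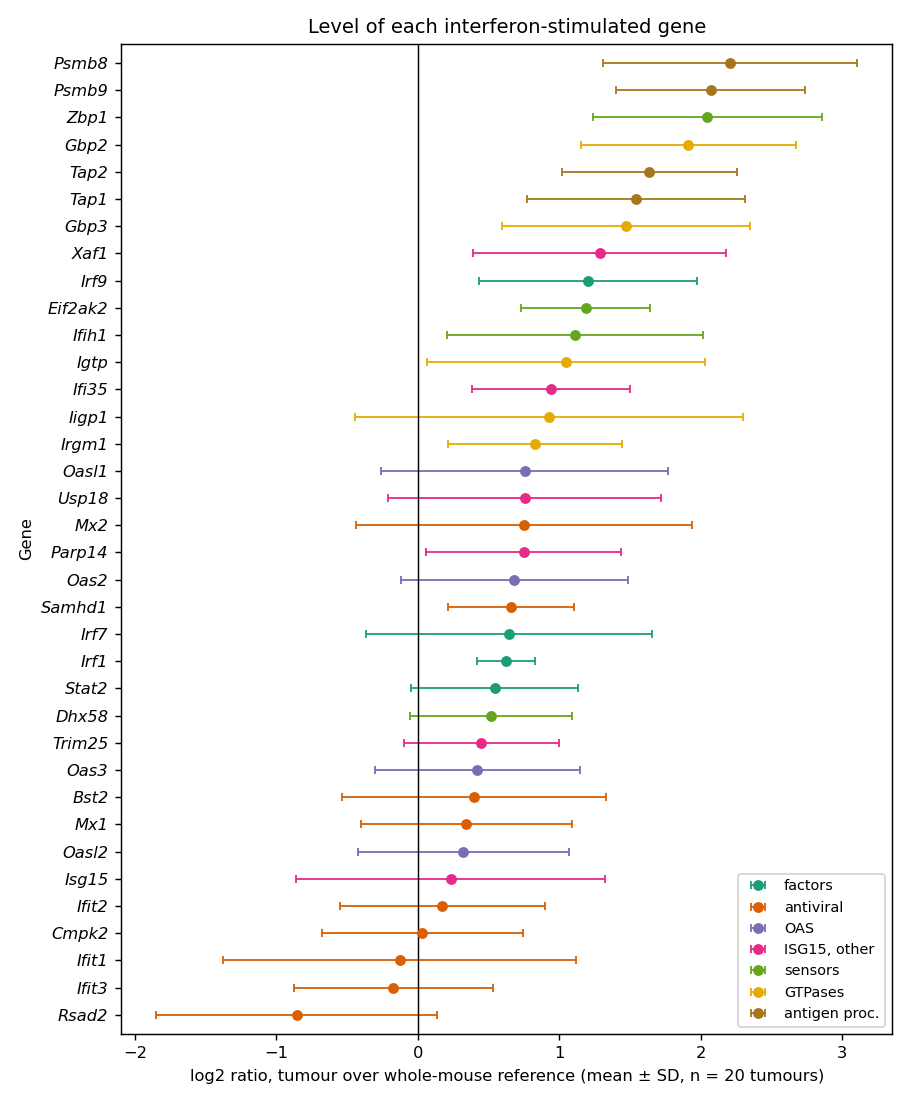
Mean log2 ratio of tumour over whole-mouse reference for each of the 36 members (horizontal axis), ordered from highest to lowest and coloured by role, with bars of ± SD over 20 tumours. The antigen processing genes Psmb8 and Psmb9 sit highest at 2.21 and 2.07, and the antiviral genes Ifit1, Ifit3 and Rsad2 are the 3 members with means under 0.

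The antigen processing genes were the highest role group. Psmb8 and Psmb9 encode subunits of the immunoproteasome, which cuts proteins into peptides for class I presentation, and Tap1 and Tap2 encode the transporter that carries those peptides into the endoplasmic reticulum. All 4 were above the reference in all 20 tumours. Psmb8 averaged 2.21 ± 0.90 (SD, n = 20) and ranged from 0.70 (LPA3 mouse 4) to 3.54 (LPA1 mouse 4). The log2 ratio of Psmb9 in mice 1 to 5 was 3.28, 3.00, 2.29, 2.31 and 2.21 for ATX, 1.19, 1.61, 1.97, 3.39 and 1.89 for LPA1, 1.85, 1.46, 2.40, 2.25 and 0.82 for LPA2 and 2.25, 2.31, 2.19, 1.13 and 1.65 for LPA3. ATX mice 1 and 2 and LPA1 mouse 4 were the highest, LPA2 mouse 5 was the lowest, and the ranges of all 4 groups overlapped. Tap1 averaged 1.55 ± 0.77. Tap2 averaged 1.64 ± 0.62, and ATX mouse 1 stood highest at 3.47.

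The interferon-induced GTPases attack the vacuoles of bacteria and parasites inside cells. Gbp2, a guanylate-binding protein, averaged 1.91 ± 0.76 and was above the reference in every tumour, from 0.39 (LPA2 mouse 5) to 3.26 (LPA1 mouse 4). In mice 1 to 5, Igtp had log2 ratios of 2.58, 0.49, 0.31, 0.61 and 0.58 for ATX, 0.67, 1.41, 1.37, 2.20 and 0.76 for LPA1, 0.94, 0.75, 0.32, 1.41 and −0.32 for LPA2 and 3.00, 2.20, 2.26, −0.29 and −0.31 for LPA3. ATX mouse 1 and LPA3 mice 1, 2 and 3, with LPA1 mouse 4, were at 2.20 or more, and LPA2 mouse 5 and LPA3 mice 4 and 5 were below 0. Irgm1, a related GTPase that also steers autophagy, averaged 0.83 ± 0.61 and was above 0 in every tumour. Iigp1 had the largest SD of all members. The log2 ratio of Iigp1 in mice 1 to 5 was 1.90, 2.67, 1.88, 2.75 and 0.33 for ATX, 0.52, 1.26, 1.81, 1.93 and 0.81 for LPA1, 0.36, 0.22, −1.13, 0.71 and −0.22 for LPA2 and 2.25, 2.24, 1.71, −1.29 and −2.18 for LPA3. ATX mice 1 to 4 lay between 1.88 and 2.75, while LPA3 split into mice 1, 2 and 3, at 1.71 or more, and mice 4 and 5, at −1.29 and −2.18.

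The nucleic acid sensors had a median of member means of 1.15, against 1.05 for the GTPases and 1.86 for antigen processing. Zbp1, which senses Z-form nucleic acid and can start necroptosis, averaged 2.05 ± 0.81 and ranged from 0.80 (ATX mouse 3) to 3.44 (LPA1 mouse 3), above the reference in all 20. Eif2ak2, the kinase PKR that stops translation when it binds viral RNA, averaged 1.19 ± 0.45 and was also above 0 in all 20. Ifih1, the RNA sensor MDA5, averaged 1.11 ± 0.91 and ranged from −0.87 (LPA3 mouse 5) to 2.98 (LPA3 mouse 1). Dhx58, its helper LGP2, averaged 0.52 ± 0.57, from probes that did not track each other (r = −0.05 over the arrays).

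Of the transcription factors, Irf9 was the highest at 1.20 ± 0.77, with ATX mouse 3 at 4.02 and the other 19 tumours at 2.03 or below. Its 2 probes correlated at 0.06, so this gene value rests on probes that did not move together. Irf1 had the smallest SD of the averaged gene values, at 0.62 ± 0.20, but its 3 probes also disagreed (lowest r −0.54). Taken singly these probes had SDs of 0.46, 0.53 and 0.72, so the small SD does not show a steady level. Stat2 averaged 0.54 ± 0.59. In mice 1 to 5, Irf7 had log2 ratios of 1.06, −0.27, 0.07, −1.0 and 0.74 for ATX, 0.01, 0.00, 1.87, 1.49 and 0.82 for LPA1, −0.15, 0.05, 0.97, 2.20 and 0.02 for LPA2 and 2.24, 2.16, 1.10, −1.17 and 0.76 for LPA3. Irf7, the factor that amplifies type I interferon production, was at 1.87 or more in LPA1 mouse 3, LPA2 mouse 4 and LPA3 mice 1 and 2, and lowest in ATX mouse 4 and LPA3 mouse 4.

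The antiviral effectors were the lowest role group, with a median of member means of 0.18. The log2 ratio of Ifit1 in mice 1 to 5 was −0.70, −0.80, −1.52, −0.56 and −0.69 for ATX, −0.28, −0.18, 1.70, −0.55 and −1.22 for LPA1, −1.30, −1.04, 0.39, 1.47 and −1.64 for LPA2 and 2.76, 1.45, 1.56, −0.79 and −0.58 for LPA3. Ifit1 encodes a protein that binds viral RNA and blocks its translation. It was above 0 in 6 tumours (LPA1 mouse 3, LPA2 mice 3 and 4, LPA3 mice 1, 2 and 3) and below 0 in the other 14, all ATX tumours among them. In mice 1 to 5, Mx2 had log2 ratios of −0.56, −0.07, 0.10, 0.43 and 0.08 for ATX, 0.55, 0.38, 3.06, 0.73 and 0.10 for LPA1, −0.35, −0.03, 0.99, 2.92 and −0.15 for LPA2 and 2.59, 2.18, 2.41, −0.58 and 0.27 for LPA3. Mx2 belongs to the dynamin-like Mx proteins that trap viral particles, and its 5 highest values came from LPA1 mouse 3, LPA2 mouse 4 and LPA3 mice 1, 2 and 3. The log2 ratio of Rsad2 in mice 1 to 5 was −1.11, −2.30, −1.54, −1.66 and −2.18 for ATX, −0.79, −1.18, −0.62, −1.98 and −0.73 for LPA1, −1.24, −0.46, −1.31, 0.62 and −0.61 for LPA2 and 1.51, −0.31, 0.97, −0.74 and −1.44 for LPA3. Rsad2 encodes viperin, an enzyme that makes a chain-ending nucleotide. It was below the reference in 17 of 20 tumours, and the 5 ATX values (−2.30 to −1.11) overlapped those of each receptor group. Ifit3 averaged −0.17 ± 0.70 and ranged from −1.12 (ATX mouse 3) to 1.55 (LPA3 mouse 1). Samhd1, which breaks down the nucleotides that viruses need, was above 0 in every tumour at 0.66 ± 0.45. Ifit2, Mx1, Cmpk2 and Bst2 had means between 0.03 and 0.40.

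Isg15 was high in the 5 tumours in which Mx2 was high. In mice 1 to 5, Isg15 had log2 ratios of −0.59, −0.66, −0.59, −0.69 and −0.31 for ATX, 0.00, 0.07, 2.16, −1.12 and −0.48 for LPA1, 0.28, −0.10, −0.63, 2.24 and −0.26 for LPA2 and 2.50, 1.15, 1.64, −0.14 and 0.23 for LPA3. Isg15 is a ubiquitin-like protein that is joined to other proteins after interferon. LPA1 mouse 3, LPA2 mouse 4 and LPA3 mice 1, 2 and 3 were at 1.15 or more. All 5 ATX tumours lay between −0.69 and −0.31, below every LPA3 tumour, whereas LPA1 and LPA2 reached down to −1.12 and −0.63. Xaf1, an antagonist of an apoptosis inhibitor, was above the reference in every tumour at 1.28 ± 0.89, with LPA3 mouse 1 highest at 3.88. Trim25, a ubiquitin ligase of the RNA sensing pathway, averaged 0.45 ± 0.55. Usp18, which strips ISG15 off again, Parp14 and Ifi35 averaged between 0.75 and 0.94. Of the oligoadenylate synthetase family, Oas2 averaged 0.68 ± 0.80 and Oasl1 0.76 ± 1.01, and none of the 4 was above 0 in all tumours.

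**Figure D2:**
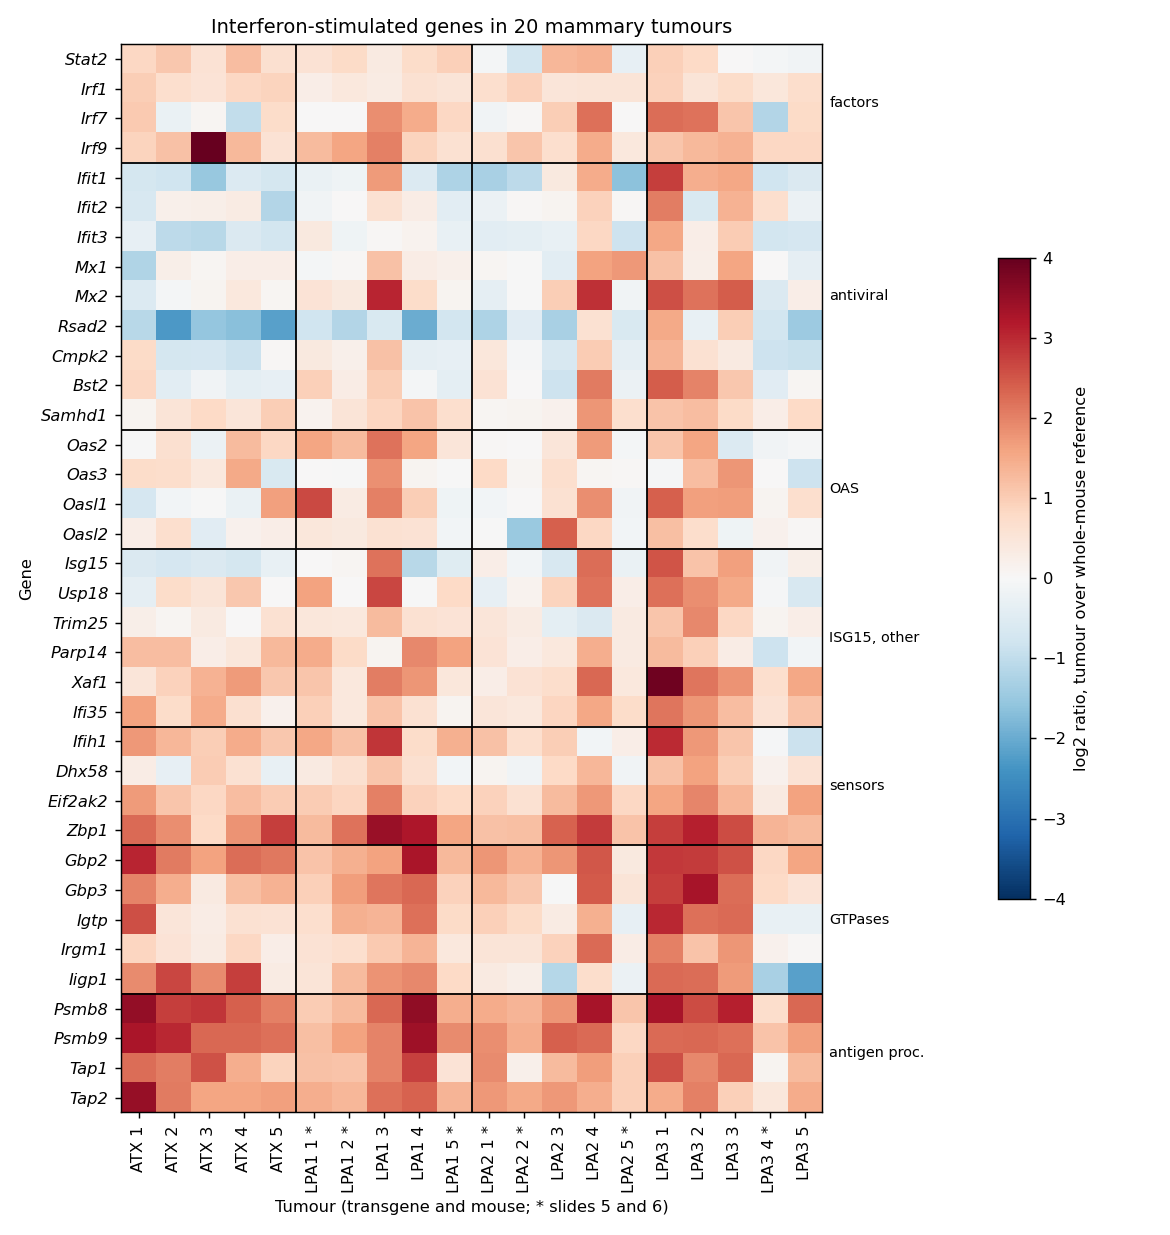
Log2 ratio of tumour over whole-mouse reference for the 36 members (rows, grouped by role) in the 20 tumours (columns; an asterisk marks slides 5 and 6); red is above and blue below the reference. LPA1 mouse 3, LPA2 mouse 4 and LPA3 mice 1, 2 and 3 form the red columns among the antiviral rows, and the antigen processing rows are red throughout.

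**Figure D3:**
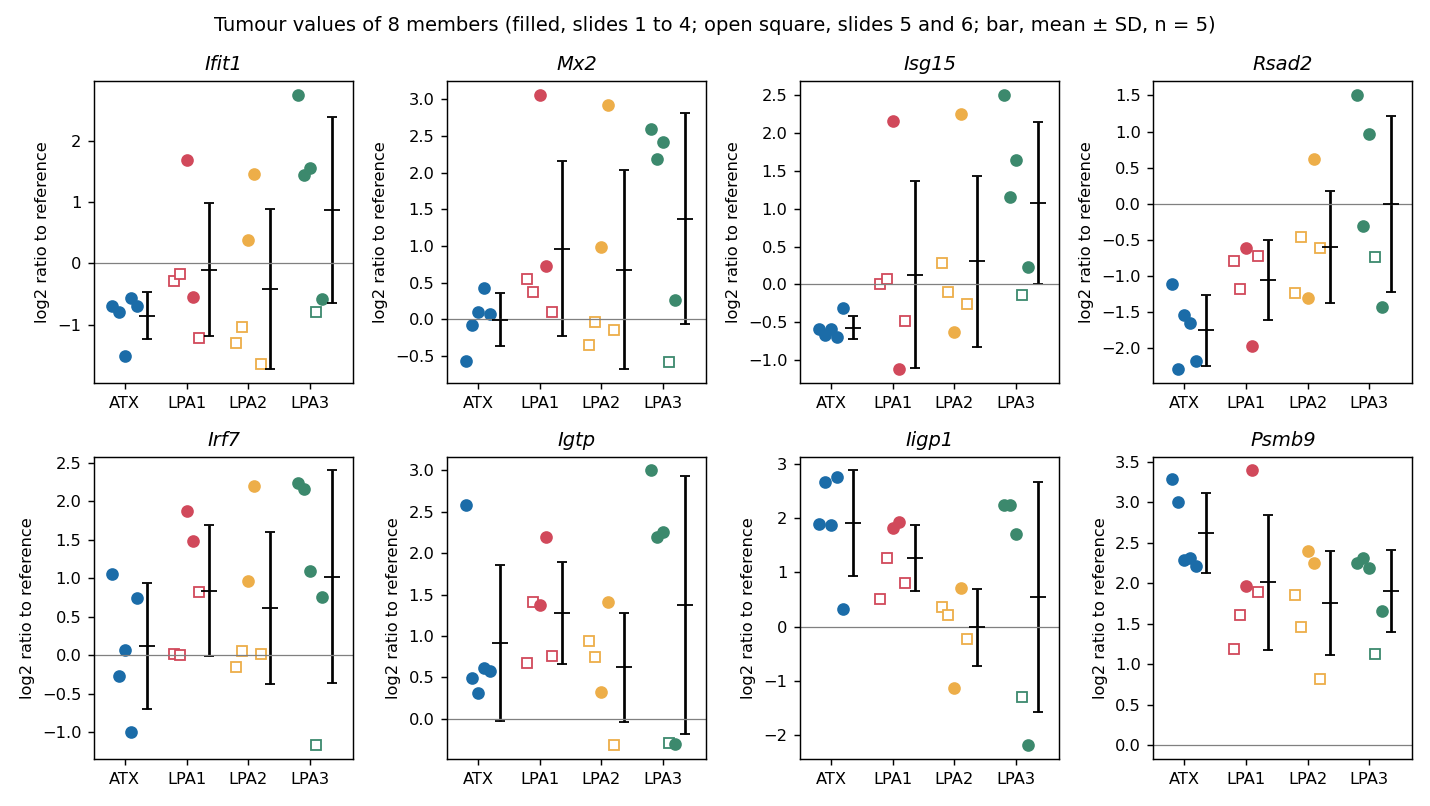
Log2 ratios of 8 members by transgene, 1 point per tumour (filled, slides 1 to 4; open squares, slides 5 and 6) with mean ± SD (n = 5); the vertical axes differ between panels. The ATX values of Isg15 lie between −0.69 and −0.31, below all LPA3 values and within or just under the values of LPA1 and LPA2.

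Interferon-stimulated genes went up and down together from tumour to tumour. The median Pearson correlation between 2 members over the 20 tumours was 0.40 over 630 pairs, 582 of them above 0, against 0.00 for all pairs of genes. A correlation of 0.5 or more was reached by 35.9% of member pairs and by 4.24% of all gene pairs. Within slides 1 to 4 the median was 0.31 (0.01 for all genes, 13 tumours), and within slides 5 and 6 it was 0.24 (0.00, 7 tumours). The points share arrays and the reference, and these correlations are descriptions. The role groups differed in how tightly they moved. The median was 0.73 within antigen processing, 0.70 within the GTPases, 0.63 within the antiviral effectors, 0.25 within the oligoadenylate synthetase family and 0.03 among the transcription factors. Within slides 5 and 6 the antiviral effectors had a median of −0.12, with 16 of 36 pairs above 0, against 0.71 and 36 of 36 within slides 1 to 4. The GTPases had 0.63 within slides 1 to 4 and 0.85 within slides 5 and 6, and antigen processing 0.52 and 0.62. Ifit1 and Mx2 correlated at 0.93 (Spearman 0.87), with 0.93 within slides 1 to 4 and 0.60 within slides 5 and 6. Psmb8 and Tap1 correlated at 0.84.

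The 2 tumours with the highest antigen processing score were not among the 5 with the highest antiviral score. The median correlation between a member of the one and a member of the other was 0.17, with 27 of 36 pairs above 0, and it was 0.12 within slides 1 to 4 and 0.06 within slides 5 and 6. Ifit1 and Psmb9 correlated at 0.18 over all tumours and at −0.35 within slides 1 to 4. For each role group a score was taken as the mean over its genes of the log2 ratio minus that gene's mean over the tumours. The antiviral score was 1.70 in LPA3 mouse 1, 1.34 in LPA2 mouse 4, 1.10 in LPA3 mouse 3, 0.87 in LPA1 mouse 3 and 0.65 in LPA3 mouse 2, and below 0 in the other 15 tumours. The antigen processing score was highest in ATX mouse 1 (1.25) and LPA1 mouse 4 (1.14), whose antiviral scores were −0.45 and −0.18. In the 5 tumours of high antiviral score it was 0.25 to 0.54, above 0 in each. The score over all members was highest in LPA3 mouse 1 (1.14) and lowest in LPA3 mouse 4 (−0.77), both of the same transgene, and its SD within groups was 0.55.

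**Figure D4:**
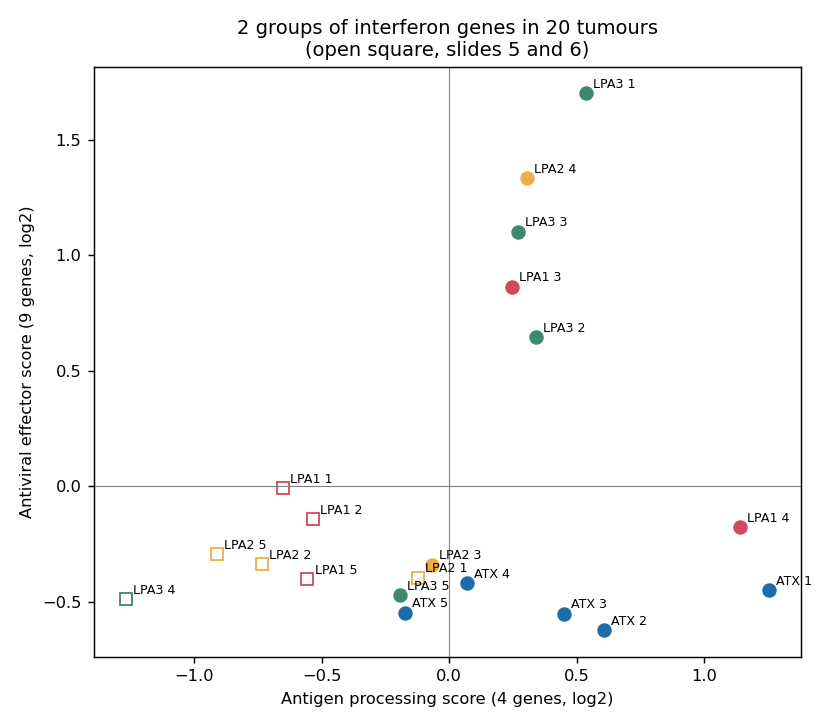
Antiviral effector score (9 genes, vertical axis) against antigen processing score (4 genes, horizontal axis), in log2 units, 1 point per tumour, coloured by transgene, with open squares for slides 5 and 6. The 5 tumours of high antiviral score stand at 0.65 or more, and the ATX tumours lie between −0.62 and −0.42 on that axis while spanning −0.17 to 1.25 on the other.

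The genes outside the list that tracked the score over all members most closely, by Pearson correlation over 20 tumours, included known interferon targets. Rtp4 came highest at 0.89 (0.86 within slides 1 to 4, 0.88 within slides 5 and 6). Oas1f, of the oligoadenylate synthetase family, reached 0.88 and Oas1a 0.83. Cxcl10, a chemokine that draws T cells, reached 0.85 but −0.13 within slides 5 and 6. The others of the 12 were Ncoa3, Cdc42se1, Slc7a6os, Nop2, Snw1, Nubp1, Zfp330 and Litaf, at 0.82 to 0.84. Of 47 further interferon-induced genes compared, 18 (38.3%) had a correlation of 0.5 or more, against 4.63% of 18896 genes. Of 27 genes of the interferon pathway itself (ligands, receptors, kinases, sensors and adaptors), 3 did (11.1%). They were the sensor Ddx58 (RIG-I) at 0.77 (0.64 within slides 1 to 4, 0.58 within slides 5 and 6), Sting1, the adaptor of DNA sensing, at 0.74 (0.59 and 0.53), and the RNA sensor Tlr3 at 0.52. Tlr3 reached only 0.14 and 0.34 within the slide sets. The interferon genes Ifnb1 and Ifng correlated with the score at 0.12 and 0.22. The receptor kinase Jak1 correlated at −0.72, with −0.70 within slides 1 to 4 and −0.32 within slides 5 and 6.

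Probes of 1 gene did not always track each other. The lowest correlation between probes over the arrays was 0.25 or less for Mx1, Cmpk2, Oas2, Oasl2, Trim25, Parp14 and Irgm1 as well as for Irf1, Irf9 and Dhx58.

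Among the members, Irgm1 (0.88), Ifit1 (0.88) and Mx2 (0.87) were the most like the mean of the other members. Irf1 (0.03), Irf9 (0.20) and Tap2 (0.27) were the least like it.

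The fitted values of the interferon-stimulated genes were lower in the tumours of slides 5 and 6 than in those of slides 1 to 4. With the transgene in the model, the difference between slides 5 and 6 and slides 1 to 4 was below 0 for 36 of 36 members, against 46.1% of 19064 genes, and its median was −0.84 against 0.04. Of the members 12 passed the test, all of them lower, against 1.56% of all genes called lower and 7.88% called in either direction (limma, p under 0.05 after Benjamini-Hochberg adjustment). They were Psmb8, Psmb9, Tap1, Gbp2, Irgm1, Irf7, Ifit1, Mx2, Zbp1, Eif2ak2, Dhx58 and Xaf1. Psmb8 averaged 2.75 ± 0.57 on slides 1 to 4 and 1.20 ± 0.28 on slides 5 and 6, a modelled difference of −1.62 ± 0.29 (SE, limma adjusted p = 0.00148). Mx2 averaged 1.16 ± 1.28 and −0.01 ± 0.40, with −2.0 ± 0.41 (limma adjusted p = 0.00426). After the arrays were scaled to equal spread, 30 of 36 members were lower (45.3% of all genes) and 3 passed the test, against 1.13% of all genes called lower. The slide set holds different tumours as well as narrower ratios, and these cannot be told apart.

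No interferon-stimulated gene passed the test between transgenes with or without the slide set, and some did with array weights. In the F test over the 4 transgenes, 0 of 36 members were called, against 0.0315% of 19069 genes (limma, adjusted p under 0.05), and an unadjusted p under 0.05 was found for 1, against 10.9% of all genes. The model that holds the slide set again called 0 (0.0787% of all genes), with 10 members at an unadjusted p under 0.05 against 8.75% of all genes. Mx2 had the smallest p of these (limma adjusted p = 0.289). Array weights give more weight to arrays whose values lie closer to the fitted ones, and are no measured quality. With them 5 members were called, against 17.5% of all genes, and with the slide set as well 1 was, against 1.13%.

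ATX was then set against the average of the receptor transgenes, a comparison of the LPA-producing enzyme with the receptors of LPA. Of the members 0 were called, against 0.0996% of all genes, and 5 had an unadjusted p under 0.05 (13.9%), against 12.7% of all genes. The members were lower in ATX in 24 of 36 cases, against 54.4% of all genes, with a median difference of −0.21 against −0.04. The 9 antiviral effectors were all lower in ATX (median −0.65), the 4 antigen processing genes were all higher (median 0.63), and neither is a count of genes that passed the test. Rsad2 averaged −1.76 ± 0.49 (SD, n = 5) among ATX tumours, against −1.06 ± 0.56, −0.60 ± 0.78 and −0.00 ± 1.22 among LPA1, LPA2 and LPA3 tumours. Its difference of −1.20 ± 0.40 (SE, limma adjusted p = 0.235) had the smallest p of all members. Isg15 differed by −1.07 ± 0.48 (SE, limma adjusted p = 0.367). Ifit3 differed by −0.79 ± 0.32 (SE, limma adjusted p = 0.305). In the other direction, Psmb9 averaged 2.62 ± 0.49 among ATX tumours and had group means of 1.76 to 2.01 among the receptors, a difference of 0.72 ± 0.32 (SE, limma adjusted p = 0.351). Iigp1 differed by 1.31 ± 0.60 (SE, limma adjusted p = 0.379).

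With the slide set in the model, the difference between ATX and the receptors was larger for the antiviral genes and smaller for antigen processing. Of the members 29 of 36 were lower in ATX, against 53.2% of all genes, with a median of −0.65 against −0.03. An unadjusted p under 0.05 was reached by 11 members (30.6%), against 9.29% of all genes, and 0 were called, against 0.147%. Mx2 differed by −1.94 ± 0.42 (SE, limma adjusted p = 0.0745). Irf7 differed by −1.55 ± 0.37 (SE, limma adjusted p = 0.107) and Ifit1 by −1.80 ± 0.47 (SE, limma adjusted p = 0.149). The antigen processing genes split into 2 higher and 2 lower, with a median of 0.08. With each slide as a fixed block instead, the antiviral effectors did not all move in that direction. The difference was larger than without a covariate for Ifit1, Mx2 and Samhd1, and smaller for Bst2, Cmpk2, Ifit2, Ifit3, Mx1 and Rsad2. In that fit Mx2 differed by −1.62 ± 0.57 and Rsad2 by −0.75 ± 0.57 (SE, limma adjusted p = 0.492 and 0.815). Within slides 1 to 4 alone, where 5 ATX tumours met 8 receptor tumours, 28 of 36 members were lower in ATX (53.2% of all genes), the median was −0.59, 11 had an unadjusted p under 0.05 (6.53% of all genes) and 0 were called, as of all genes. Mx2 there differed by −1.89 ± 0.52 (SE, limma adjusted p = 0.5). The antiviral score of the 5 ATX tumours lay between −0.62 and −0.42 (SD 0.08), and that of the 8 receptor tumours of the same slides between −0.47 and 1.70 (SD 0.82), the low end being LPA3 mouse 5. The groups thus overlapped in 1 receptor tumour and differed in spread as well as in mean. Rsad2 was called with array weights alone (difference −1.38, limma adjusted p = 0.0173), a fit that called 13.2% of all genes. With array weights and the slide set, 5 members were called (Irf7, Mx2, Ifit1, Ifit3 and Isg15), all lower in ATX, against 2.44% of all genes, with a smallest limma adjusted p of 0.00551 for Irf7.

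**Figure D5:**
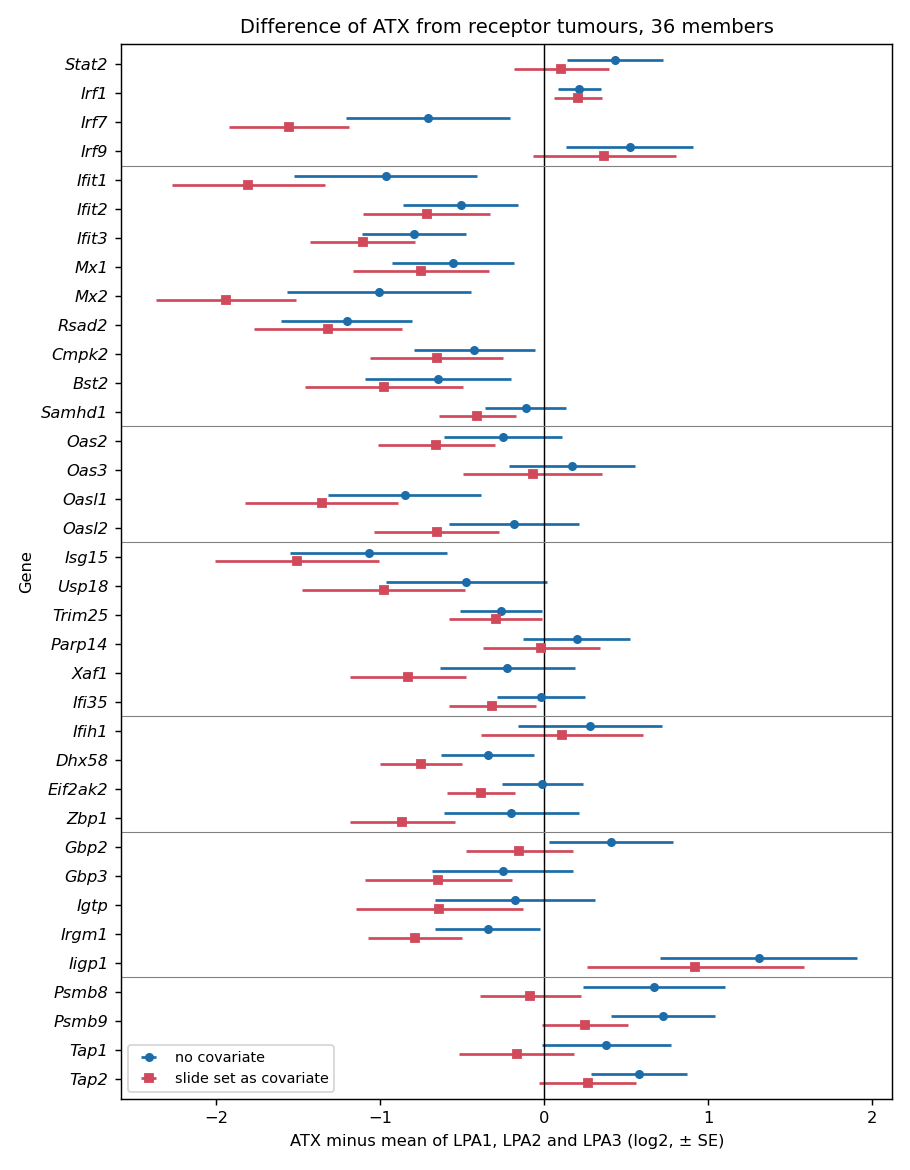
Difference of ATX from the mean of LPA1, LPA2 and LPA3 in log2 units (horizontal axis, ± SE) for each member, without a covariate (circles) and with the slide set as covariate (squares). The antiviral effectors lie left of 0 under both, Mx2 moving from −1.01 to −1.94, and the antigen processing genes lie right of 0 without a covariate and near 0 with it.

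Among the receptors, 0 members were called in each pair, against 0, 0.00524 and 0% of all genes for LPA2 against LPA1, LPA3 against LPA1 and LPA3 against LPA2. The comparisons share groups, so their values are given side by side. In LPA2 against LPA1, 29 of 36 members were lower (48.4% of all genes) with a median of −0.25, and 1 had an unadjusted p under 0.05 (3.66% of all genes). In LPA3 against LPA1, 11 of 36 were lower (54.4% of all genes) with a median of 0.19, and 4 had an unadjusted p under 0.05 (9.21%). In LPA3 against LPA2, 5 of 36 were lower (55.1% of all genes) with a median of 0.46, and an unadjusted p under 0.05 was found for 2 (9.32%). Array weights called 2 members in LPA3 against LPA2, against 5.66% of all genes, and 0 in LPA3 against LPA1, against 4.34%. After the slide set was added to the model, 25 of 36 members were lower in LPA3 than in LPA1 (51.7% of all genes, median −0.17) and 17 of 36 were lower in LPA3 than in LPA2 (52.8% of all genes, median 0.03). LPA2 against LPA1 kept its median of −0.25, since both had the same number of tumours on slides 5 and 6. LPA3 had only mouse 4 on slides 5 and 6, whereas LPA1 and LPA2 had 3 mice each there. Oas2 averaged 1.42 ± 0.62 in LPA1, 0.43 ± 0.75 in LPA2 and 0.39 ± 0.91 in LPA3. Its difference of LPA3 from LPA1 was −1.03 ± 0.44 (SE, limma adjusted p = 0.516), and −1.38 ± 0.41 (SE, limma adjusted p = 0.633) with the slide set. Xaf1 averaged 0.85 ± 0.83 in LPA2 and 2.01 ± 1.18 in LPA3, a difference of 1.16 ± 0.51 (SE, limma adjusted p = 0.523). The 2 probes of Oas2 correlated at 0.14 over the arrays, and 1 of them held 5 values of exactly 0. It averaged 0.39 in ATX and 0.01 in the receptor tumours, whereas the other averaged 0.60 and 1.49. The spread within LPA3 was wide, since its mice 1, 2 and 3 held high values of most members and mice 4 and 5 low ones.

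The genes upstream of the response and other induced genes were compared in the same fit of ATX against the receptors, and the values with the slide set are given beside them. Of 27 pathway genes measured, 0 were called, 13 were higher and 14 lower in ATX, with a median of −0.01. With the slide set 0 were called, 9 were higher and 18 lower, with a median of −0.13. Tlr3 had the smallest p, at 2.27 ± 0.52 among ATX tumours and group means of 1.49 to 1.59 among the receptors (difference 0.74 ± 0.32, limma adjusted p = 0.351), and its difference was 0.27 ± 0.27 with the slide set (limma adjusted p = 0.812). Ifnb1, the gene of interferon beta, averaged 0.16 ± 0.56 among ATX tumours, with receptor group means of 0.29 to 0.94, and Ifng 0.62 ± 0.48, with 0.13 to 0.67. Of 47 other induced genes, 0 were called, 23 were higher and 24 lower, with a median of −0.05. With the slide set 0 were called, 16 were higher and 31 lower, with a median of −0.20. B2m, the light chain of class I molecules, had the smallest p. It averaged 3.50 ± 0.73 among ATX tumours and 1.68 ± 0.93, 1.49 ± 0.90 and 1.97 ± 1.15 among LPA1, LPA2 and LPA3 tumours, a difference of 1.79 ± 0.46 (limma adjusted p = 0.139), or 1.11 ± 0.39 with the slide set (limma adjusted p = 0.32). The class I heavy chains H2-K1 and H2-D1 differed by 0.78 ± 0.41 and 0.80 ± 0.46 (limma adjusted p = 0.451 and 0.483), and by 0.11 ± 0.32 and −0.01 ± 0.32 with the slide set (limma adjusted p = 0.948 and 0.997). The chemokine Ccl5 differed by 1.21 ± 0.40 (limma adjusted p = 0.238), and Ube2l6, the enzyme that carries ISG15 to its targets, by −0.55 ± 0.19 (limma adjusted p = 0.246). These became 0.73 ± 0.39 and −0.38 ± 0.20 with the slide set (limma adjusted p = 0.591 and 0.572). Cxcl10 went the other way, from −0.56 ± 0.82 to −1.89 ± 0.64 (limma adjusted p = 0.833 and 0.308).

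Marker genes of cell types that could differ between these tumours were scored in the same way as the members. Over 20 tumours the interferon score correlated at 0.64 (Spearman 0.63) with 8 luminal epithelial markers and at −0.66 (Spearman −0.51) with 7 basal epithelial markers, and at 0.54 and −0.84 without the 2 tumours farthest from the median. The luminal value was 0.47 within slides 1 to 4 and 0.62 within slides 5 and 6, and the basal value −0.58 and 0.23. For the other lists the value over all tumours is followed by those within slides 1 to 4 and within slides 5 and 6, and for most of them it changed sign or came near 0 in a slide set. The 7 markers of plasmacytoid dendritic cells, which are known as strong makers of type I interferon, gave −0.60, −0.47 and 0.04. Whether these markers read that cell type in these tumours was not tested. The 7 fibroblast markers gave −0.55, −0.31 and −0.29, and the 7 endothelial markers −0.55, −0.41 and 0.11. Macrophage markers (9 of 11 measured) gave 0.25, 0.09 and 0.21, and T and NK cell markers (13 of 14) −0.31, −0.35 and 0.46. Neutrophil markers (7 of 8) gave −0.21, 0.10 and −0.82, and B and plasma cell markers (7 of 8) −0.02, −0.38 and 0.78. Dendritic cell markers gave 0.03, −0.33 and 0.26, class II genes 0.34, −0.18 and −0.02, and adipocyte markers (6 of 7) −0.46, −0.20 and 0.76. A list of 6 mammary genes (Krt8, Krt18, Epcam, Csn2, Csn3 and Elf5), which shares genes with the luminal list, gave 0.72, 0.50 and 0.80. Its score averaged −1.38 ± 0.34 on slides 5 and 6 against 0.74 ± 0.82 on slides 1 to 4. The adipocyte score averaged 1.80 ± 0.96 on slides 5 and 6 against −0.97 ± 1.49 on slides 1 to 4. All 7 basal markers were higher in ATX than in the receptors (median 0.95), as were all 7 class II antigen presentation genes (median 1.05). So were all 7 B and plasma cell markers measured (median 0.57), and 0 of each passed the test. All 7 neutrophil markers measured were lower (median −0.38), as were 5 of 6 adipocyte markers (median −0.65). Every other list held genes on either side, and over all genes 54.4% were lower. With the slide set the basal median was 1.70 with 7 of 7 higher, and Krt17, a basal keratin, was called (difference 1.49 ± 0.29, limma adjusted p = 0.0475). The class II median was then 0.30 with 7 of 7 higher, and the B and plasma cell median 0.48 with 6 of 7 higher, and 0 of these passed the test. Endothelial markers were then higher in 7 of 7 (median 0.55) and adipocyte markers in 6 of 6 (median 0.79). Neutrophil markers split into 3 higher and 4 lower, 0 of these 3 lists' markers were called, and over all genes 53.2% were lower. The basal score ranged from 0.41 to 1.22 among ATX tumours, and from −2.07 to 0.86, −0.70 to 0.95 and −1.78 to 0.25 among LPA1, LPA2 and LPA3 tumours. The class II score ranged from 0.18 to 1.04 in ATX and from −1.17 to 1.83 in LPA1, and averaged −0.84 ± 0.26 on slides 5 and 6 against 0.45 ± 0.68 on slides 1 to 4. The part of these markers in the interferon values was not tested.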

How the data were processed

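Per the labels, RNA came from a Qiagen RNeasy kit, and tumour RNA was hybridised with a whole-mouse reference on 21 arrays. The authors deposited 1 processed log2 ratio per feature and array. The scanner processing, normalization and log base are not given in the sources used here, and base 2 was assumed. Every array had a median of 0. The table holds 45220 features, of which the platform annotation gave 33653 a single gene symbol, 56 several and 11511 none. Only the first kind was used, and 33517 were matched by gene number. Probes of a gene were averaged. Of the values 628 were missing. No signal over background was at hand, so dim probes could not be removed. The number of arrays limits the precision.

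All genes with values in at least 4 tumours of every transgene (19069) were fitted in 1 limma 3.58.1 model (lmFit and eBayes, R 4.3.3, 16 residual degrees of freedom, no covariate). Genes under 0.05 after Benjamini-Hochberg adjustment over the whole table were called, and the fit was tested on simulated data. Alternatives were the slide set, the slide as a fixed or random block, each slide set alone, scaling and quantile normalization, array weights, other probe rules, either array of LPA1 mouse 4, and leaving out each tumour. The members, roles and marker lists were chosen with earlier results of these data known. Values by tumour or group were given for 22 members: in each role, the smallest p-values of ATX against receptors, the highest mean and the largest SD. Others are given as ranges, or where a sentence on their role needed them. Mouse numbers name different mice in each group. Over 30 pairs of tumours with the same number, deviations from the group means correlated at −0.36 to 0.32 (median 0.00), so the numbers pair no samples.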

Additional observations from a re-analysis of the deposited data

Results flagged for a closer look

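A tumour that stood far from the other 4 of its group was found in 9 of 92 groups of 5 examined (23 quantities in 4 transgenes). The quantities included members picked for a large SD in these tumours, and they share tumours. The count therefore cannot be set against a rate expected by chance. The measure was the gap to the nearest tumour over the range of the group, above Dixon's critical value of 0.71. Irf9 was 4.02 in ATX mouse 3 against 0.58 to 1.29 in the other ATX tumours. Ifit1 was −1.52 in ATX mouse 3 against −0.80 to −0.56. Oasl1 was 1.64 in ATX mouse 5 against −0.66 to −0.01, and Isg15 was −0.31 in the same tumour against −0.69 to −0.59. Tap2 was 3.47 in ATX mouse 1 against 1.57 to 2.08. Mx2 was 3.06 in LPA1 mouse 3 against 0.10 to 0.73, and Trim25 was 1.25 in the same tumour against 0.43 to 0.60. Gbp2 was 3.26 in LPA1 mouse 4 against 1.14 to 1.60. Xaf1 was 2.30 in LPA2 mouse 4 against 0.25 to 0.70. LPA1 mice 3 and 4 and LPA2 mouse 4 were on slides 1 to 4, and 3 of the tumours they were set against in each group were on slides 5 and 6.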

How the results depend on the processing

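For ATX against receptors 0 members were called in the fit without a covariate, with slide set, fixed slide block or random slide block, with mouse number as replicate block (median difference −0.21), within slides 1 to 4, after scaling or quantile normalization, under the other probe rules and without any 1 tumour. Array weights called 1 member there, 2 in LPA3 against LPA2 and 5 in the F test. The slide set with array weights, chosen after seeing the data, called 5 members and 1 in the F test. With the slide set and 1 tumour left out, also chosen after seeing the data, 0 to 2 members were called: Irf7 without ATX mouse 1, Mx2 and Ifit1 without LPA1 mouse 4, and Mx2 without LPA2 mouse 3 or LPA3 mouse 5. The share of all genes called in these refits is not given here, so the member counts cannot be judged against it. The median difference of ATX from receptors ranged from −0.31 to −0.12 without 1 tumour, and from −0.769 to −0.482 with the slide set as well (−0.761 without LPA3 mouse 5 and −0.769 without LPA2 mouse 3). On slides 5 and 6 alone the medians were −0.44 for LPA3 against LPA1 and −0.25 for LPA3 against LPA2, where LPA3 is 1 tumour assumed to vary like the others. With the slide set and 1 tumour left out, the median of LPA3 against LPA2 ranged from −0.13 to 0.22. The slide sets differed in 3 members after scaling (3.99% of all genes) and in 11 among receptors only (7.68% of all genes). Among 13 members followed through 728 alternative values, Xaf1 turned to 0.019 with array weights, and Zbp1 ranged from −0.421 to 0.075 without 1 tumour, turning above 0 without ATX mouse 3. The causes were not tested. Over all genes, ATX against receptors called 19 without a covariate, 28 with slide set, 0 and 5 with slide as fixed or random block, 31 after quantile normalization, 2522 with array weights and 466 with array weights and the slide set. No values of signal over background were at hand to set a limit for dim probes.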
